A study of Homo sapiens and Mus musculus with 20 samples.

Results

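The promoters of long noncoding RNA (lncRNA) genes that stand apart from protein-coding genes were examined in SW480 cells before and after sodium propionate (NaPr) or sodium butyrate (NaBu). Open regions were built by merging the chromatin accessibility peaks of 12 SW480 libraries and keeping each merged region with a peak in 2 or more of them. Of 167303 such regions, 4931 lay within 1 kb of the annotated start of a lncRNA gene and more than 3 kb from any protein-coding transcript start, and these regions are called lncRNA promoters here. They belonged, by nearest start, to 4074 lncRNA genes. A further 4606 regions near a lncRNA start were left out because a coding start was within 3 kb. The annotation held 18866 lncRNA genes, of which 14256 started more than 3 kb from a coding start. By the form of their names, 3333 of the 4931 regions were at genes with only an identifier or clone name, 842 at intergenic LINC genes, 374 at antisense (-AS) genes, 62 at host genes of small RNAs, 33 at overlapping or intronic transcripts, 2 at divergent transcripts and 285 at genes with another symbol.

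A lncRNA is a transcript, usually capped and spliced, that carries no long open reading frame. Such genes are transcribed from promoters that are nucleosome-depleted, as those of coding genes are, but their products tend to be expressed at lower levels and in fewer cell types, and many of their promoters resemble enhancers in sequence and chromatin. Some lncRNAs act in the nucleus as scaffolds or in imprinting, while others serve mainly as the precursor of a microRNA or a small nucleolar RNA (snoRNA).

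The study asked how propionate and butyrate, short-chain fatty acids made by gut bacteria from fibre, change chromatin in colorectal cancer cells. SW480 is a line from a human colorectal adenocarcinoma. Accessibility was measured by ATAC-seq (Omni-ATAC), in which a transposase cuts and tags open DNA, on 50000 viable cells a reaction. In one experiment 3 libraries from cells at 0 mM NaPr were compared with 3 from cells given 10 mM NaPr, and in the other 3 libraries at 0 mM NaBu with 3 given 1 mM NaBu, for 12 to 16 h each. All were wild-type SW480 cells in medium with serum, and each experiment had its own untreated libraries. Compound, dose and experiment differed together, so they cannot be told apart when the compounds are set side by side. The labels number the replicates but do not say whether they were separate cultures, so p-values measure the spread between these libraries. Each library's list held 108442 to 144398 peak intervals, and the weakest peak listed had a −log10 p of 3.37 to 6.53 in the NaPr experiment and of 7.25 to 9.38 in the NaBu experiment, so the depth of the lists differed. The number of reads behind them is unknown here. Of 9 colon epithelial genes 7, among them EPCAM, KRT8 and CDX2, had a promoter peak in all 12 libraries, while CDX1 had none. Of the markers of other cells, PTPRC, CD3E, CD79A, CDH5 and COL3A1 had a promoter peak in 0 libraries, and CD68, COL1A1, PDGFRB, RBFOX3 and SYP had one in all 12. The endothelial gene PECAM1 had one in 11.

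Reads were not used here, so each region was given its percentile rank within a library, using the largest −log10 p among its peaks in that library, from 0 for a region without a peak to 100 for the strongest. The weakest region with a peak ranked at 35.8 to 44.6, depending on the library, so a region that lost or gained its peak moved by at least about that much. A change below is the mean rank of 3 treated libraries less that of 3 untreated ones, in percentile points, with its standard error (SE) from limma. A region was called higher or lower at a Benjamini-Hochberg adjusted p below 0.05 over all regions tested in that experiment, those with a peak in 2 or more of its 6 libraries. A rank shows a region's place among the open regions, not a rise or fall shared by the whole genome.

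Some lncRNA promoters with a gene symbol that were called after both compounds are described first, chosen as those whose smaller change was largest. Others called after both appear further below. The sequence of 200 bp around the summit of 6 of those described first is shown here. Their base composition and motifs can thus be read beside their values. Sequences are from the plus strand of GRCh38, 5′ to 3′. Capitals mark matches, on either strand, to 7 short motifs, AP-1 (TGACTCA), the cAMP response element or CRE (TGACGTCA), the GC box (GGGCGG), the ETS core (CCGGAAG), the CCAAT box, the TATA box (TATAAA) and the GATA motif (AGATAA). These motifs were found in 15.3%, 0.383%, 14.1%, 2.35%, 22.8%, 7.19% and 7.80% of the windows of all 167303 regions. A match is a match of letters and not evidence of binding. The first group was higher after both compounds.
LINGO1-AS1, chr15:77642911-77643110: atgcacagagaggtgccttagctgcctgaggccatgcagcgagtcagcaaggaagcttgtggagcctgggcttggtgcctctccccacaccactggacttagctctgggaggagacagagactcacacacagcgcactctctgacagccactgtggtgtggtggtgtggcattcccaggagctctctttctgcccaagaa
LINC02897, chr1:247113036-247113235: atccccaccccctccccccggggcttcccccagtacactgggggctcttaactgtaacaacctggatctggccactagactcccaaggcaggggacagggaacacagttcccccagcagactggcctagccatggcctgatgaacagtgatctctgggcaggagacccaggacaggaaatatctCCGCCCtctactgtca
HHLA3-AS1, chr1:70360463-70360662: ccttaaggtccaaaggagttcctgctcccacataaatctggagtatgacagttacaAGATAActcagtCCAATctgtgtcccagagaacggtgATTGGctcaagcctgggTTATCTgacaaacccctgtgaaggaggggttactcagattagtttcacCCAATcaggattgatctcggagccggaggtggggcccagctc
LINGO1-AS1 held none of the motifs, LINC02897 1 GC box, and HHLA3-AS1 5 matches to CCAAT or GATA. The next pair were lower after both.
LINC02832, chr2:219686248-219686447: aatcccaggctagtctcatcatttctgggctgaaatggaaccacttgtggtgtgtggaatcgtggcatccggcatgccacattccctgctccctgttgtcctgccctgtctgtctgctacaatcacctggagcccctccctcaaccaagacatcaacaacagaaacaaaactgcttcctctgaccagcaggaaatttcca
MAGI1-IT1, chr3:65953481-65953680: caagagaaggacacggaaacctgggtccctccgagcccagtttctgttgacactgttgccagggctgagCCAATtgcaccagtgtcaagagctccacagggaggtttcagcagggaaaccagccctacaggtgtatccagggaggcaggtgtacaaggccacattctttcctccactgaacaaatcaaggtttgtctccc
LINC02832 held none of the motifs and MAGI1-IT1 1 CCAAT. The last was lower after NaPr and higher after NaBu.
LINC01842, chr19:14333599-14333798: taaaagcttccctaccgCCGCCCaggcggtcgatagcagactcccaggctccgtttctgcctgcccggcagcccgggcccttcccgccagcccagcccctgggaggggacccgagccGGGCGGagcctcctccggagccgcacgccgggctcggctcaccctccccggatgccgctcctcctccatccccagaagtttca
LINC01842, at 72% G+C, held 2 GC boxes.

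HHLA3-AS1 was already open in untreated cells of the NaPr experiment and rose after both compounds. The region, chr1:70360161-70360738, contains the start of this antisense gene and lies 5427 bp from the nearest coding start, that of ANKRD13C. Its ranks were 53.4, 61.2 and 63.9 in the untreated NaPr libraries and 82.8, 81.9 and 78.6 after NaPr. The groups did not overlap, and the change was 21.6 ± 3.74 (SE, limma adjusted p = 0.0265). In the NaBu experiment it had no peak in the 3 untreated libraries and ranked at 77.2, 75.1 and 59.7 after NaBu, so it passed the filter there through the treated libraries alone and its NaBu change is a description. Its mean fold enrichment over the local background was 5.06 in untreated and 13.1 in NaPr-treated libraries, and 9.94 after NaBu. LINGO1-AS1 (chr15:77642646-77643441), 8293 bp from the start of LINGO1, and LINC02897 (chr1:247112655-247113657), 8283 bp from that of ZNF669, were open only in treated libraries of either experiment. LINGO1-AS1 ranked at 50.1, 52.4 and 54.6 after NaPr and at 53.2, 57.6 and 50.8 after NaBu. LINC02897 ranked at 49.8, 47.0 and 46.8 after NaPr and at 50.8, 49.5 and 37.9 after NaBu. These ranks are near the bottom of the listed peaks. Both regions passed the filter of either experiment through the treated libraries alone, so their changes are descriptions.

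MAGI1-IT1, an intronic transcript of the junction scaffold gene MAGI1, kept a peak in all 12 libraries (chr3:65953091-65953816) and fell after both compounds. Its ranks were 82.5, 78.0 and 76.1 without and 44.8, 51.2 and 52.7 with NaPr, a change of −29.3 ± 4.57 (limma adjusted p = 0.0231). They were 87.1, 84.8 and 83.7 without and 58.4, 50.9 and 62.2 with NaBu, a change of −28.0 ± 3.27 (limma adjusted p = 0.00156). Treated and untreated libraries were apart in both experiments. LINC02832 (chr2:219686028-219686668) ranked at 81.3, 84.8 and 83.6 without and 41.7, 48.4 and 52.6 with NaPr, and at 50.5, 55.1 and 50.3 without NaBu, with no peak after NaBu. The narrow region at DLGAP1-AS1 (chr18:3593014-3593244) had a peak in all 6 untreated libraries, at ranks of 71.0, 70.7 and 72.6 in one experiment and 53.7, 64.5 and 61.9 in the other, and in no treated library of either. Its fold enrichment in the untreated libraries was low, 2.14 to 3.42. DLGAP1-AS1 in both experiments and LINC02832 with NaBu passed the filter through the untreated libraries alone, so these changes are descriptions.

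**Figure D1:**
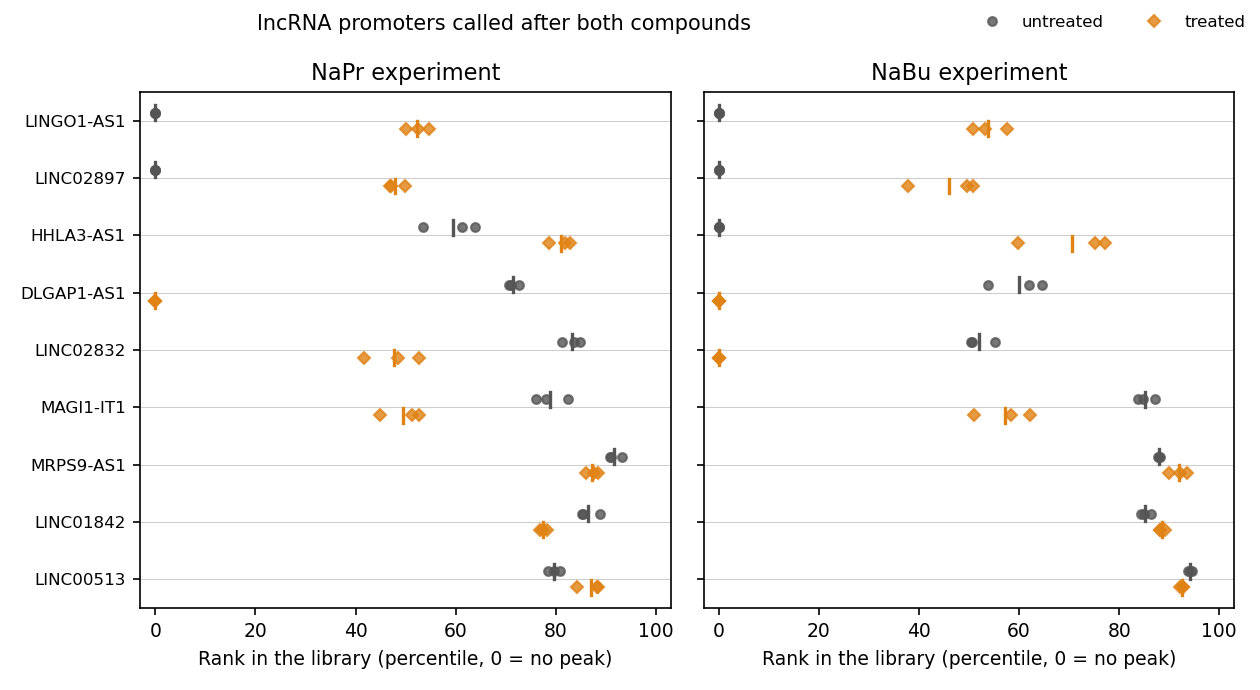
Percentile rank of 9 named lncRNA promoters (rows) in each library of the NaPr (left) and NaBu (right) experiment, where 0 means no peak. Grey circles are untreated and orange diamonds treated libraries, and vertical ticks are means of 3. The top 3 rows lie to the right after treatment in both experiments, the next 3 to the left, and the last 3 move by under 10 points in opposite directions.

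LINC01842, MRPS9-AS1 and LINC00513, each open in all 12 libraries, were called in opposite directions. LINC01842 (chr19:14333238-14334661) ranked at 85.5, 88.9 and 85.2 without and 78.2, 76.9 and 77.4 with NaPr, and at 84.9, 86.4 and 84.4 without and 89.2, 88.2 and 88.2 with NaBu. The changes were −9.02 ± 1.54 and 3.31 ± 0.782, with limma adjusted p = 0.0260 and 0.0216. MRPS9-AS1 (chr2:105102813-105104158), 64744 bp from the start of the mitochondrial ribosomal protein gene MRPS9, changed by −4.36 ± 1.04 after NaPr and by 3.97 ± 0.946 after NaBu, with limma adjusted p = 0.0443 and 0.0223. LINC00513 (chr7:130853319-130854485) went the other way, by 7.38 ± 1.59 and −1.61 ± 0.384, with limma adjusted p = 0.0366 and 0.0221. The changes after NaBu were small. Ranked by fold enrichment in place of −log10 p, those of LINC01842 and MRPS9-AS1 turned to −0.246 and −1.52 and were not called. Leaving out 1 NaBu library at a time, untreated replicate 1 or 3 or treated replicate 1 took LINC01842 to an adjusted p of 0.0553 to 0.0604. For MRPS9-AS1, untreated replicate 1, 2 or 3 or treated replicate 1 took it to 0.0640 to 0.0716. For LINC00513, untreated replicate 1 or 3 or treated replicate 3 took it to 0.0533 to 0.0568.

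As a class, lncRNA promoters stood between coding promoters and distal regions in level. The median rank of the 4931 regions was 62.0 to 63.1 over the 12 libraries bar the NaBu-treated ones, which were at 61.6 to 62.3. Coding promoters, the 24173 regions within 1 kb of a coding start, had medians of 76.1 to 84.4, and the 121686 distal regions, over 3 kb from any coding or lncRNA start, had medians of 43.3 to 46.2. Of the lncRNA promoters 2140 (43.4%) had a peak in all 12 libraries, against 61.5% of coding promoters and 24.1% of distal regions, and 554 had a peak in exactly 2. The gene start lay inside the region for 2523 (51.2%), and the highest summit was within 200 bp of the start for 1700 (34.5%). The median summit was 14 bp upstream of the start and the median distance to a coding start was 36337 bp, with 1167 regions over 100 kb away. With a window of 500 bp there would be 3803 members, and with a coding distance of 5 kb 4648.

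More lncRNA promoters had a peak in treated than in untreated libraries, which also held over all regions. Of the 4931, between 66.6% and 68.1% had a peak in each untreated NaPr library and between 68.3% and 70.4% in each NaPr-treated one. The shares were 66.4% to 68.2% in untreated NaBu libraries and 71.3% to 71.8% after NaBu. The groups did not overlap in either experiment. Over all regions the mean share went from 57.1% to 60.3% with NaPr and from 58.4% to 63.6% with NaBu, and over the lncRNA promoters from 67.5% to 69.5% and from 67.4% to 71.6%. At coding promoters the shares went the other way, from 76.8% to 78.0% down to 76.0% to 76.3% with NaPr, and from 82.1% to 83.6% down to 78.6% to 79.0% with NaBu. At distal regions the NaPr groups overlapped at the edge, 51.3% to 55.6% without and 55.5% to 59.5% with it, and the NaBu shares were 51.6% to 53.9% without and 59.7% to 61.2% with it. The number of peak intervals listed was also higher with NaBu, 126008 to 128955 against 108442 to 120971, and its part in these shares was not tested.

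After NaPr, 167 lncRNA promoters were called higher and 232 lower. The test covered 3982 of the 4931, so 4.19% were higher, where 5.03% of all 124067 regions tested were, and 5.83% lower, where 4.07% were. In all, 10.0% of lncRNA promoters were called against 9.1% of all regions. Among coding promoters 414 of 20153 were higher and 1610 lower, and among distal regions 4939 of 88573 were higher and 2720 lower. The median change of the lncRNA promoters was −0.259, against 0.0345 over all regions. Of the calls, 68 higher ones had no untreated peak and 64 lower ones no treated peak. A region that passes the test's filter only through one group had to differ, so these are no measure of how often promoters changed. Among the 2555 lncRNA promoters with a peak in all 6 libraries, 98 were higher, against 4.69% of all such regions, and 166 lower, against 4.9%. The calls rest on all 6 libraries. When any 1 of them was left out, whichever it was, limma called 0 members, with a lowest adjusted p of 0.0503 to 0.0632 over all regions and 899 to 972 members at an unadjusted p below 0.05, where 1032 were with all 6.

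The 6 largest called rises after NaPr among promoters with a symbol were at LINC01882, LINC02129, ACSL3-AS1, LINC01805, LINC02419 and LINC01476, and each had a peak in the 3 treated libraries and no untreated one. The same was true of 80 lncRNA promoters in all, beside 2.95% of all regions tested. They passed the filter through the treated libraries alone, so these NaPr changes are descriptions. LINC01882 (chr18:12775914-12776823), whose nearest coding start is that of the phosphatase gene PTPN2 at 25330 bp, ranked at 76.4, 76.3 and 72.3 after NaPr, and had no peak in the NaBu experiment. ACSL3-AS1 (chr2:222919751-222920214), near the acyl-CoA synthetase gene ACSL3 whose product activates fatty acids, ranked at 75.2, 57.6 and 65.9. Its distance to the ACSL3 start was 10135 bp and it too had no peak in the NaBu experiment. LINC02129 ranked at 71.6, 71.1 and 66.7 after NaPr and had a peak in 2 of 3 NaBu-treated libraries.

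The 6 largest called falls after NaPr were at LINC01503, DLGAP1-AS1, LINC01729, NCAL1, LINC02863 and STX18-IT1, all with a peak in the 3 untreated and no treated library. There were 66 such lncRNA promoters, beside 1.5% of all regions tested. They passed the filter through the untreated libraries alone, so these NaPr changes are descriptions. LINC01503 (chr9:129332115-129332472), a lncRNA described in squamous cell carcinoma, ranked at 68.7, 72.0 and 75.0 without NaPr at the gene's start. STX18-IT1 (chr4:4481688-4482447), which also spans its gene's start, ranked at 62.5, 63.6 and 63.9 without NaPr. In the NaBu experiment it had a peak in all 6 libraries, at 59.9, 67.1 and 57.2 without and 51.5, 45.2 and 55.5 with NaBu, and was not called (limma adjusted p = 0.128). The window at NCAL1 had a second near-identical copy in the genome, so its reads are uncertain.

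After NaBu, 625 lncRNA promoters were called higher and 628 lower of 3929 tested. Higher calls made up 15.9%, beside 17.2% of all 123730 regions tested, and lower calls 16.0%, beside 14.5%. In all, 31.9% were called against 31.7% of all regions. Coding promoters had 1739 higher and 5078 lower of 21721, and distal regions 16763 higher and 10173 lower of 85489. The median change was 0.0969 at lncRNA promoters and 0.566 over all regions. Calls without any peak in one group numbered 183 higher and 102 lower. Among the 2726 lncRNA promoters with a peak in all 6 libraries, 409 were higher, beside 16.8% of all such regions, and 483 lower, beside 16%. Leaving out 1 library at a time gave 510 to 583 higher and 457 to 633 lower.

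**Figure D2:**
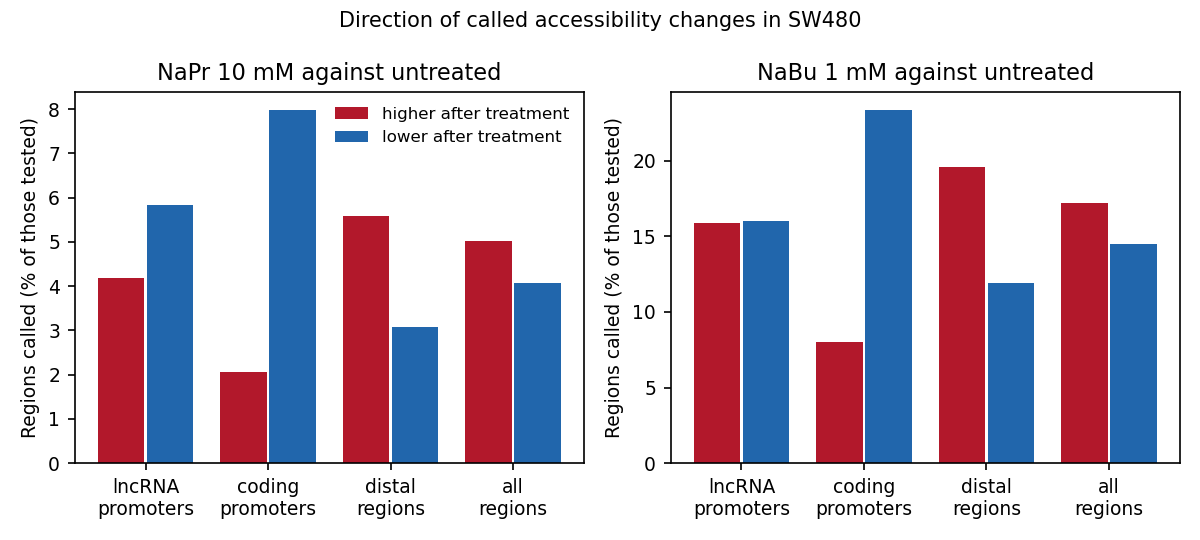
Share of tested regions called higher (red) or lower (blue), in percent, after 10 mM NaPr (left) and 1 mM NaBu (right), with different vertical scales. At lncRNA promoters the red and blue bars were 4.19% and 5.83% after NaPr and 15.9% and 16.0% after NaBu, while blue exceeded red at coding promoters and red exceeded blue at distal regions.

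The 6 largest called rises after NaBu were at HHLA3-AS1, LINC02209, LINC02215, ASMTL-AS1, LINC02725 and LINC01522. The first 3 and LINC02725 had no untreated NaBu peak, as did 183 lncRNA promoters with a peak in all 3 treated libraries, beside 6.41% of all regions tested. Those without an untreated peak passed the filter through the treated libraries alone, so their NaBu changes are descriptions. LINC02215 (chr5:118596230-118596879) ranked at 75.6, 68.9 and 57.8 after NaBu and had no peak in the NaPr experiment. LINC02725 (chr11:128095276-128096254), 409140 bp from its nearest coding start, that of the transcription factor gene ETS1, ranked at 57.2, 71.1 and 66.8. ASMTL-AS1 had ranks of 0, 41.9 and 0 without and 84.0, 78.3 and 80.4 with NaBu, but its window has a near-identical copy. LINC01522 (chr20:47988622-47989256) had ranks of 45.8, 0 and 0 without and 74.8, 75.7 and 82.6 with NaBu, a change of 62.4. Both passed the filter through the treated NaBu libraries. It also rose after NaPr, from 68.5, 73.4 and 64.8 to 84.9, 85.0 and 80.7 (limma adjusted p = 0.0310). Without NaBu-treated replicate 2 or 3 the change of LINC01522 after NaBu was 63.4 or 60.0 and was no longer called.

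The 6 largest called falls after NaBu were at YWHAEP7, LNCATV, DIP2C-AS1, LINC01805, INTS4P1 and MRPL23-AS1, each open in the 3 untreated and no treated library. There were 102 such lncRNA promoters, beside 3.72% of all regions tested. They passed the filter through the untreated libraries alone, so these NaBu changes are descriptions. YWHAEP7 (chr17:37884444-37885547), named as a pseudogene of the 14-3-3 epsilon gene, ranked at 71.0, 74.8 and 70.1 without NaBu. MRPL23-AS1 (chr11:1989493-1989637) ranked at 66.1, 67.1 and 53.8 without NaBu, and in the NaPr experiment at 71.9, 65.0 and 61.6 without and 41.7, 60.5 and 60.8 with NaPr, where it was not called (limma adjusted p = 0.295). INTS4P1, also a pseudogene by name, is uncertain because its window occurs 3 times in the genome in near-identical form. LINC01805 appears under both compounds through separate regions. The one beside its start (chr2:64486503-64486607) lost its peak with NaBu, while the next (chr2:64487312-64487980) had no untreated peak in the NaPr experiment, 72.5, 65.1 and 59.8 after NaPr, and 83.3 to 89.5 in the 6 NaBu libraries.

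Of the 3058 lncRNA promoters tested in both experiments, 73 were higher after both compounds, beside 3.18% of all regions tested in both, and 98 lower after both, beside 2.23%. These are 2.39% and 3.20% of the members. Some of them passed a filter through the treated or the untreated libraries alone and had to differ there. The 73 made up 58.4% of the members that rose after NaPr and 14.1% of those that rose after NaBu, and the 98 made up 49.5% and 20.7% of those that fell. Over all regions the corresponding shares were 57.3% and 16.5% for rises and 48.8% and 17.2% for falls. Of the members 7 went in opposite directions, 5 of them lower after NaPr and higher after NaBu. Across the 3058 members, the changes of the 2 experiments, which share no library, had a Pearson r of 0.495, and across all 83651 regions 0.467. Both ranks come from one set of merged regions, and regions are not replicates.

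**Figure D3:**
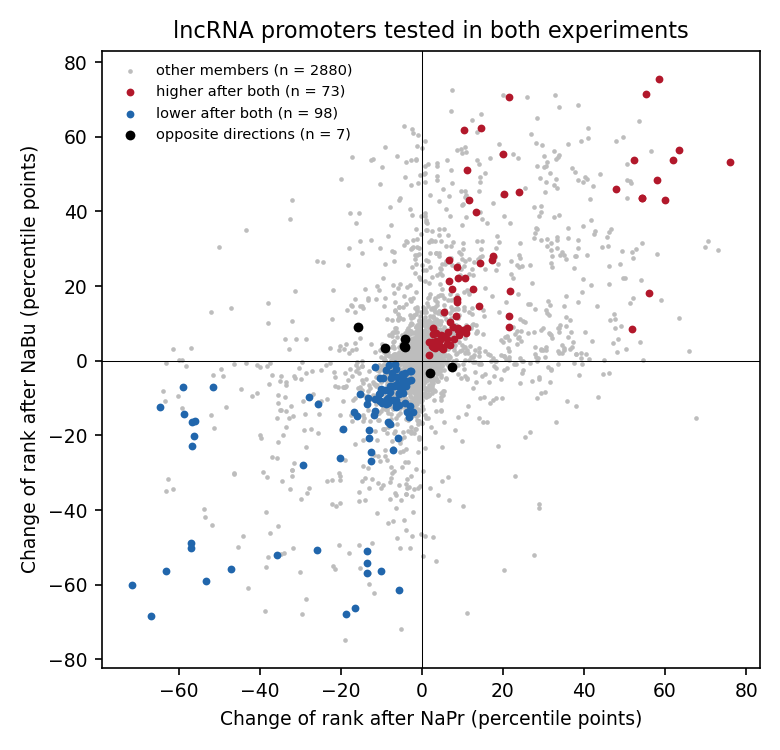
Change of rank after NaPr (horizontal) against NaBu (vertical), in percentile points, for 3058 lncRNA promoters, each a point. Red points (73) were called higher and blue points (98) lower after both compounds, black points (7) in opposite directions, and grey points are all others.

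Called lncRNA promoters, including those that passed the filter through the treated or the untreated libraries alone, differed in base composition by direction. Such calls, which had to differ, numbered 68 higher and 64 lower after NaPr, and 183 and 102 after NaBu. The 232 lower after NaPr had a median G+C of 61% in the 200 bp at the summit, the 3583 not called 56% and the 167 higher 54%. After NaBu the medians were 57%, 54.5% and 53.5%. The same order held over all regions after NaPr, with 59%, 53% and 50.5%, and after NaBu the lower regions had 53.5% and the others 50.5%. The ratio of observed to expected CpG was 0.488 in members lower after NaPr and 0.220 in those higher. Over all 4931 members the median G+C was 54.5% and the CpG ratio 0.301, between coding promoters (62.5% and 0.661) and distal regions (50% and 0.194). In the fraction of members with the most G+C (62.5% to 88%), 23 were higher and 107 lower of 1105 tested after NaPr, and 101 and 233 of 1016 after NaBu. In that with the least (26.5% to 48%), 42 were higher and 26 lower of 770 after NaPr, and 170 and 139 of 1042 after NaBu. Over all regions tested 5.03% were higher and 4.07% lower after NaPr, and 17.2% and 14.5% after NaBu. The fraction with the most G+C had 2.08% and 9.68%, and 9.94% and 22.9%. That with the least had 5.45% and 3.38%, and 16.3% and 13.3%. How far G+C acts through the making of the libraries was not tested.

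**Figure D4:**
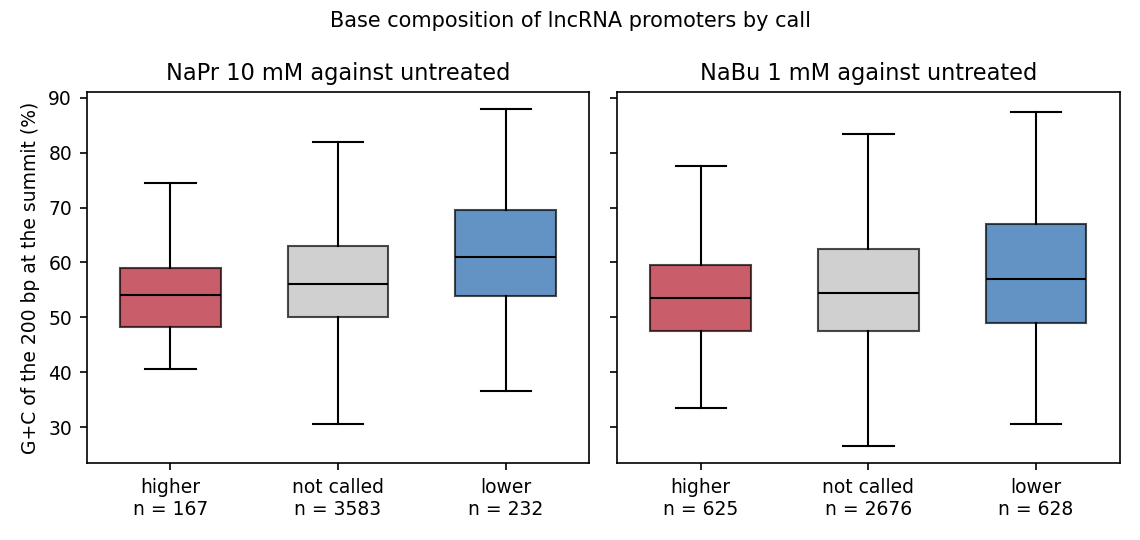
G+C content (%) of the 200 bp at the summit of lncRNA promoters called higher, not called or called lower after NaPr (left) and NaBu (right). Boxes show the median and quartiles, whiskers reach the last value within 1.5 box lengths. The lower box sits highest in both panels, with medians of 61% and 57%.

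The shares of AP-1, CCAAT, the GC box and ETS, but not of the other 3 of the 7 motifs, were ordered by direction in both experiments. The AP-1 heptamer, the site of FOS and JUN dimers, was in 22.8% of members higher after NaPr, 14.1% of those not called and 9.91% of those lower, and in 17.0%, 13.98% and 11.1% after NaBu. The GC box, the letters read by SP and KLF factors, was in 13.8%, 22.8% and 37.1% after NaPr and in 17.4%, 22.8% and 30.4% after NaBu. CCAAT was in 32.3%, 22.1% and 16.4% after NaPr and in 26.1%, 21.5% and 19.6% after NaBu. The TATA box was in 4.19%, 4.47% and 3.88% of members higher, not called and lower after NaPr and in 4.96%, 6.20% and 4.46% after NaBu, with no such order. The GATA motif was in 4.79%, 5.83% and 4.74% and in 5.28%, 6.50% and 5.25%, and CRE in at most 1.12% of any group, again without that order. ETS was in 0.599% (1 region), 3.80% and 4.31% after NaPr and in 2.08%, 3.77% and 3.98% after NaBu. For AP-1, the GC box, CCAAT and ETS the same order held over all regions in both experiments. After NaPr, AP-1 was in 27.7% of all regions higher, 15.5% of those not called and 7.25% of those lower. The GC box was in 8.06%, 16.5% and 31.5%, CCAAT in 27.7%, 22.4% and 15.4%, and ETS in 1.12%, 2.78% and 5.07%. Among all members 13.5% held AP-1 and 20.8% a GC box, against 6.09% and 43.5% of coding promoters and 17.3% and 8.14% of distal regions. The motifs differ in G+C, so motif and G+C shares are not separate observations. The motif shares also include the calls that passed the filter through the treated or the untreated libraries alone.

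Regions that contained the gene start and those beside it had calls of both kinds. Of 2261 tested with the start inside, 87 were higher and 149 lower after NaPr, and of 1721 beside it 80 and 83. After NaBu the counts were 336 and 384 of 2179, and 289 and 244 of 1750. Beside these and the following counts, 5.03% of all regions tested were higher and 4.07% lower after NaPr. After NaBu 17.2% of all regions were higher and 14.5% lower. The shares at LINC genes were near these, 4.30% and 6.02% after NaPr and 17.4% and 14.3% after NaBu. LINC genes had 30 higher and 42 lower of 698 after NaPr and 117 and 96 of 671 after NaBu, antisense genes 10 and 13 of 287 and 51 and 49 of 303, and genes without a symbol 122 and 153 of 2665 and 434 and 413 of 2626. Genes with another symbol had 4 higher and 13 lower of 251 after NaPr and 20 and 48 of 250 after NaBu, and overlapping or intronic transcripts 0 and 3 of 27 by limma (10 at an unadjusted p below 0.05) and 1 and 6 of 23. At 742 genes more than 1 region counted as a member, up to 5. Regions of 1 gene were called in opposite directions at 5 genes after NaPr and at 20 after NaBu. One of the 5, chosen after its values were seen, was MIR4713HG. Its region at the start (chr15:51037459-51037841) ranked at 45.9, 50.7 and 45.0 without NaPr and had no treated peak, while the neighbouring one (chr15:51038032-51039331) rose from 79.2, 74.8 and 73.1 to 84.4, 90.9 and 86.7. The region at the start was near the bottom of the listed peaks. It passed the filter through the untreated libraries alone, so its NaPr change is a description.

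Host genes of small RNAs, whose introns or exons hold the precursors, were counted by list. Of 49 regions at microRNA host genes, 41 were tested after NaPr, with 1 higher and 7 lower (median change −0.312), and 40 after NaBu, with 1 higher and 13 lower (median change −2.75). Of 22 at snoRNA host genes, 20 were tested after NaPr, with 0 higher and 3 lower by limma (5 at an unadjusted p below 0.05, median change 0.121), and 22 after NaBu, with 1 higher and 5 lower (median change −0.393). Of all regions tested, 5.03% were higher and 4.07% lower after NaPr, and 17.2% and 14.5% after NaBu. The higher calls after NaPr are too few to be told from these shares. Some lower calls had a peak in the untreated libraries alone and had to differ. The 62 regions classed by name as small RNA hosts, a set that differs in part from these lists, had a higher median G+C of 61.5%. MIR200CHG, host of the epithelial microRNAs miR-200c and miR-141, had a region at its start (chr12:6960798-6963707) that ranked at 97.6, 95.6 and 95.4 without and 89.8, 89.0 and 90.2 with NaPr, a change of −6.55 ± 0.761 (limma adjusted p = 0.0157). After NaBu it changed by −0.883 ± 0.203 (limma adjusted p = 0.0194), from 99.6, 99.5 and 99.5 to 98.6, 98.8 and 98.6, but by 0.601 when ranked by fold enrichment. MIR181A2HG fell after both, by 6.29 ± 0.938 and 10.5 ± 1.74 points (limma adjusted p = 0.0219 and 0.00518), at a region downstream of its start, while its start region was not called. MIR493HG, in the imprinted DLK1 and MEG3 domain, lost its peak with NaPr from ranks of 51.4, 52.4 and 51.2 and fell by 6.99 ± 1.99 points with NaBu (limma adjusted p = 0.0408). Without NaBu untreated replicate 1 or 2 or treated replicate 1 or 2 the NaBu change of MIR493HG was −5.11 to −7.50 with an adjusted p of 0.0713 to 0.131. The 3 snoRNA hosts lower after both were SNHG16, SNHG21 and SNHG28. The nearest start at the SNHG21 and SNHG28 regions was that of another lncRNA gene, with the host's start within 1 kb. The SNHG21 region (chr15:82749496-82751168) went from 95.5, 96.4 and 97.0 to 90.0, 88.7 and 91.4 with NaPr and from 98.5, 98.3 and 97.8 to 95.4, 96.3 and 95.8 with NaBu. At SNHG16 it was a region downstream of the start (chr17:76558390-76558769) that lost its peak with NaPr, not the one at the start, which was not called. This downstream region and that of MIR493HG passed the NaPr filter through the untreated libraries alone, so their NaPr changes are descriptions. The single rises after NaBu, named after their values were seen, were MIR4300HG (9.80 ± 1.97) and an upstream region at SNHG17 (24.8 ± 6.13), and SNHG17 was no longer called without NaBu untreated replicate 2 or 3 or treated replicate 1, 2 or 3 (limma adjusted p = 0.0659 to 0.0928, changes of 21.3 to 26.0).

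Among 12 nuclear or imprinted lncRNA genes, 6 had a member, with 11 regions between them. Of the 11, 0 were higher and 1 lower after NaPr by limma (1 at an unadjusted p below 0.05, median change −1.08), and 2 were higher and 3 lower after NaBu (median change −0.664). Of all regions tested 9.1% were called after NaPr and 31.7% after NaBu, and so few members cannot be told from these shares. MALAT1, the nuclear speckle RNA, had a start region (chr11:65496603-65497991) at ranks of 93.8 to 94.9 without and 93.5 to 96.3 with NaPr, and 97.5 to 97.8 without and 96.5 to 97.6 with NaBu, called in neither. The next region (chr11:65498111-65498659) rose with NaBu from 83.7, 81.6 and 83.8 to 88.8, 89.8 and 87.6 (5.71 ± 1.00, limma adjusted p = 0.00671) and ranked at 74.2, 68.4 and 57.9 without and 57.5, 0 and 49.9 with NaPr, not called. KCNQ1OT1, an imprinted antisense RNA, ranked at 98.8 to 99.3 without and 99.3 to 99.7 with NaPr and at 97.0 to 98.2 and 97.5 to 98.4 in the NaBu experiment, and was called in neither. NORAD, which binds the PUMILIO proteins, was at 92.8, 93.2 and 95.3 without and 90.2, 92.6 and 92.3 with NaPr (not called), and fell from 98.96, 98.7 and 98.3 to 95.7, 96.1 and 95.4 with NaBu (−2.89 ± 0.327, limma adjusted p = 0.00144).

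NEAT1, the scaffold of paraspeckles, had regions with different responses. The one upstream (chr11:65421189-65421884), whose nearest start is that of another lncRNA gene, fell from 92.5, 91.4 and 91.7 to 73.5, 78.2 and 84.3 with NaPr (−13.2 ± 2.50, limma adjusted p = 0.0296) and from 85.4, 88.9 and 88.9 to 76.4, 80.3 and 76.9 with NaBu (−9.91 ± 1.56, limma adjusted p = 0.00424). The one at the NEAT1 start (chr11:65422633-65423242) rose from 85.7, 85.5 and 84.5 to 90.1, 88.1 and 89.0 with NaBu (3.84 ± 0.783, limma adjusted p = 0.0123) but by fold rank changed by −5.13 and was not called, and with NaPr it was at 75.7, 73.5 and 75.1 without and 81.6, 78.7 and 73.4 with it. At FIRRE, an X-linked RNA of nuclear architecture, the start region stayed uncalled, at 95.3 to 97.4 over the NaPr and 97.1 to 98.1 over the NaBu libraries. A small upstream region (chrX:131831257-131831469) lost its peak with NaBu from ranks of 62.5, 54.9 and 50.1. That region passed the NaBu filter through the untreated libraries alone, so its NaBu change is a description.

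Of 12 lncRNA genes known from colorectal cancer 4 had a member, with 0 of 4 regions called after NaPr by limma (3 at an unadjusted p below 0.05, median change 1.58) and 1 higher and 1 lower of 4 after NaBu (median change 9.82). Beside these, 9.1% of all regions tested were called after NaPr and 31.7% after NaBu. At PRNCR1, in the gene desert upstream of MYC, the region (chr8:127080495-127081337) rose from 67.0, 58.2 and 59.9 to 88.3, 90.0 and 84.6 with NaBu (26.0 ± 2.89, limma adjusted p = 0.00138). With NaPr it was at 78.8, 81.1 and 80.8 without and 87.3, 87.4 and 82.9 with it, groups that did not overlap, but it was not called (limma adjusted p = 0.0874). PVT1, the neighbour of MYC on its other side, had the highest rank of the list, 99.8, 99.9 and 99.9 without NaBu, and fell to 96.8, 98.6 and 97.7 (−2.16 ± 0.472, limma adjusted p = 0.0162). The call at PVT1 was lost without NaBu untreated replicate 1, 2 or 3 or treated replicate 3, where the adjusted p was 0.0544 to 0.0621 and the change −2.13 to −2.19. UCA1 ranked at 0, 50.7 and 45.0 without and 68.7, 74.4 and 71.9 with NaPr, yet was not called (limma adjusted p = 0.131). CCAT2 was called in neither experiment.

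Of 16 lncRNA genes known from tumours in general, 6 had a member, with 0 regions higher and 1 lower of 7 after NaPr by limma (3 at an unadjusted p below 0.05, median change −1.22) and 1 higher and 2 lower of 9 after NaBu (median change −1.94). For this and the next lists, the shares called over all regions tested were 9.1% after NaPr and 31.7% after NaBu. LINC00460 fell from 83.9, 86.9 and 84.6 to 78.9, 78.8 and 73.9 with NaPr (−7.95 ± 1.905, limma adjusted p = 0.0450). Its NaBu ranks were 59.9, 56.3 and 68.4 without and 0, 51.1 and 36.4 with NaBu, not called (limma adjusted p = 0.113), although the groups did not overlap. LINC00511 fell from 86.3, 85.4 and 80.9 to 73.0, 74.0 and 75.6 with NaBu (−10.0 ± 1.80, limma adjusted p = 0.00722). At CYTOR a region upstream of the start (chr2:87453963-87454262) rose with NaBu by 8.88 ± 1.75 (limma adjusted p = 0.0108), and the one it shares with NCAL1 fell by 1.94 ± 0.435 (limma adjusted p = 0.0178). The CYTOR and NCAL1 windows have near-identical copies and are uncertain, and the call of the shared NCAL1 region was lost without NaBu untreated replicate 3 or treated replicate 2 (limma adjusted p = 0.0610 or 0.0519, changes of −1.76 or −2.00). LUCAT1 and CASC15 were called in neither experiment. The p53-linked list had members at PINCR and PURPL, with 0 calls by limma of 1 tested after NaPr and of 2 after NaBu, and PURPL was open in the 6 NaBu libraries only, at 80.4 to 89.9. The epithelial list had members at LINC00261, beside FOXA2, and HNF4A-AS1, open in NaPr libraries only and called in none of 3 tests by limma. At an unadjusted p below 0.05 there were 0 regions of the p53-linked list and 1 of the epithelial list, HNF4A-AS1.

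**Figure D5:**
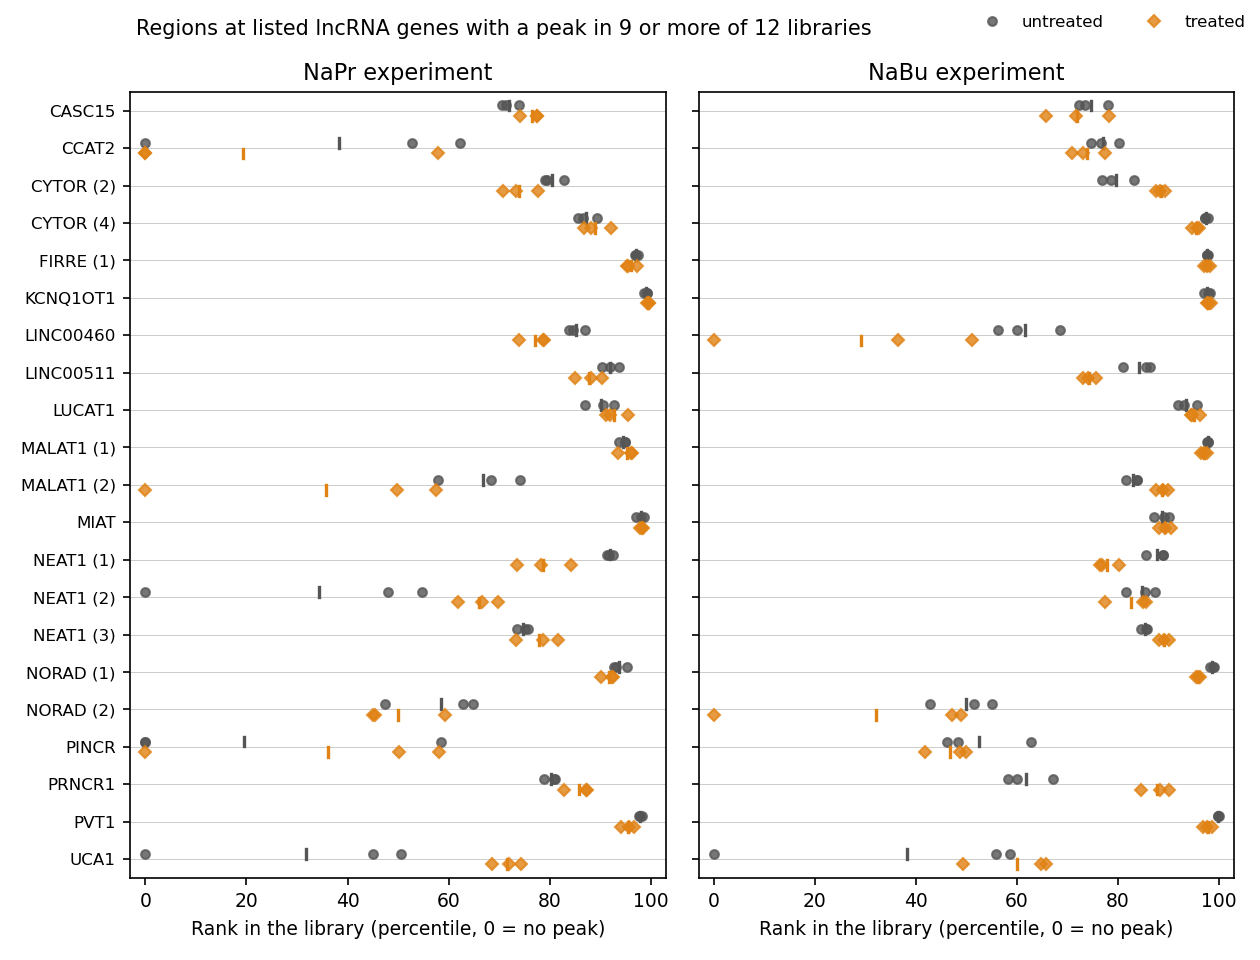
Percentile rank in each library of 21 regions at listed lncRNA genes, those with a peak in 9 or more of 12 libraries, numbered by position where a gene had several. Grey circles are untreated and orange diamonds treated libraries, ticks are means of 3, and 0 means no peak. The groups overlap at MIAT in both panels, while PRNCR1 moves right and LINC00511 left after NaBu.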

How the data were processed

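The data were ATAC-seq peak lists of 12 SW480 libraries (8 mouse CT26 libraries of the 20 were not used here). Per the labels, bcl2fastq 2.17.1, cutadapt 1.9.1, Bowtie2 2.3.1 and MACS2 2.1.0 were used, and the authors aligned reads to GRCh38 and called peaks in each library separately. The deposited files are peak lists with the fold enrichment of each summit over local background, its −log10 p-value and q-value, and its offset as the authors' caller gave them. Each list held 299022 to 299463 summits, so its weakest peak was set by list length. Reads were not analysed here, so a count test on reads was not repeated and depth is unknown.

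Peak intervals were merged over libraries, and genes were taken from GENCODE release 44. The 4931 members are regions within 1 kb of a lncRNA gene start and over 3 kb from a coding transcript start. Ranks were compared within each experiment, 3 treated against 3 untreated, by limma 3.58.1 (lmFit and eBayes with trend, two-sided, R 4.3.3), with Benjamini-Hochberg adjustment over all regions tested. The method was checked on simulated data. Windows of 200 bp were aligned with minimap2 2.31-r1302, and a hit of 190 or more matching bases counted as a copy. Genes with a symbol were named by rule, as the 6 largest called rises and falls of each compound with groups apart, those called after both compounds with the largest smaller change (up to 6 in the same and 4 in opposite directions), and genes of the lists. Members and lists were chosen with earlier results of these data known. Alternatives were ranking by fold enrichment, the 100000 or 50000 strongest intervals, no filter, a peak in 3 or more of the 6 libraries and a replicate block. Others put regions without a peak at their mean rank, merged the 6 libraries of each experiment alone, or left out each library. Members were also redefined with 500 bp, with 5 kb, with all lncRNA transcript starts and with all transcripts of coding genes. A peak in all 6 libraries was added after the data were seen.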

Additional observations from a re-analysis of the deposited data

Results flagged for a closer look

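In 5 regions named above, every treated library lay on one side of all untreated libraries after NaPr and on the other side after NaBu. LINC01842 changed by −9.02 after NaPr and 3.31 after NaBu, MRPS9-AS1 by −4.36 and 3.97, and LINC00513 by 7.38 and −1.61 percentile points, each called in both experiments. CYTOR (chr2:87453963-87454262) changed by −6.58 and 8.88, and ENSG00000270117 (chr11:65498111-65498659), beside MALAT1, by −31.0 and 5.71, with only the NaBu change called at either. The difference between the experiments was not tested, and compound, dose and experiment cannot be told apart. Groups of 3 libraries are too small for a test of single outlying libraries.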

How the results depend on the processing

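The NaPr calls depended on the processing more than the NaBu calls did. With all 6 libraries 167 lncRNA promoters were higher and 232 lower after NaPr. Ranking by fold enrichment gave 89 and 139, testing without a filter on peaks 11 and 25, and leaving out any 1 library 0 to 0 in both directions by limma, with 899 to 972 members at an unadjusted p below 0.05. Other settings changed the NaPr counts less. The 100000 strongest intervals gave 174 and 224, and a peak in 3 or more of the 6 libraries 195 and 252. Regions without a peak at the mean rank gave 157 and 223, and libraries merged by experiment 172 and 230. For NaBu, with 625 higher and 628 lower, ranking by fold gave 388 higher and 523 lower, the 50000 strongest intervals 385 and 434, and leaving out 1 library 510 to 583 higher and 457 to 633 lower. A peak required in all 6 libraries, chosen after seeing the data, gave 151 and 219 for NaPr and 482 and 571 for NaBu. The cause of these shifts was not tested. Over all regions, the 11286 NaPr calls became 7242 by fold and 832 without the filter, and the 39215 NaBu calls, 31.7% of 123730 tested, became 21458 with the 50000 strongest intervals, 38.7% of only 55411 tested. That setting tested 2242 members against 3929.

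Replicate numbers are shared by the groups, so a fit with the replicate block was run. It gave 0 higher and 0 lower members for NaPr by limma, with 970 at an unadjusted p below 0.05, and 546 higher and 543 lower for NaBu. Same-numbered libraries deviated together only weakly (r = 0.004, 0.009 and 0.016 for NaPr, 0.049, 0.013 and 0.028 for NaBu). The labels do not say whether same-numbered libraries were handled together, so whether they are pairs is not settled. Every NaPr library correlated best with its own number, but not every NaBu library.

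Of 1734 comparisons of named changes with an alternative, 1395 kept their side of the threshold, 33 of these being uncalled changes whose sign turned, 319 lost the call, 16 gained one and 4 reversed. The 4 called changes that reversed did so after NaBu when ranked by fold, at LINC01842 (−0.246), MRPS9-AS1 (−1.52), MIR200CHG (0.601) and the start region of NEAT1 (−5.13), none then called. A region without a peak only fell below its list's limit, so absence of accessibility was not shown.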
